A study of Homo sapiens with 16 samples.

Results

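The genes of the integrated stress response and of the unfolded protein response were examined in the established human melanoma line A375 by chromatin immunoprecipitation and sequencing (ChIP-seq). The set was chosen by gene name, with earlier results of these data known. It holds 36 of 19970 protein-coding genes (RefSeq, GRCh38). For each gene, peak summits in the gene body or within 10 kb of it were counted in 10 peak lists. Both groups of cells were serum-starved for 2 h. The treated group then received recombinant human TGFB1, a ligand that signals through TGF-beta receptors, at a dose of 10 ng/mL for 2 h. The vehicle group received BSA at 1 mg/mL in 4 mM HCl for the same time. No inducer of endoplasmic reticulum (ER) stress is named in the labels for either group. Chromatin was precipitated with 10 µg of antibody against SMAD2/3 (the transcription factors that TGF-beta receptors activate), H3K27ac (histone acetylation found at active promoters and enhancers), MITF (the regulator of pigment cell identity), ATF3 (a stress-induced basic leucine zipper factor) or JUNB (a subunit of AP-1).

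Cells answer unfolded protein in the ER, lack of amino acids and other insults by phosphorylating the translation factor eIF2alpha. Global translation then falls while that of the transcription factor ATF4 rises. ATF4, in pairs with C/EBP proteins, binds composite C/EBP-ATF elements (CARE) at genes for amino acid transport and synthesis and for feedback on the response itself, and ATF3 is a target of ATF4 that can bind related sequences. In parallel, ER-resident sensors activate XBP1 and ATF6, which bind ER stress response elements (ERSE) at chaperone genes. In melanoma, ATF4 is known to repress MITF.

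Each combination of antibody and treatment had 1 library, although the design text speaks of technical triplicates, so the differences given here rest on single libraries and no p-value was computed. Of 3 experiment dates, 1 held SMAD2/3 and H3K27ac, another MITF alone, and the remaining date ATF3 with JUNB. Antibody and date cannot be told apart across dates, but vehicle and TGFB1 libraries of an antibody have the same date. The lists held from 1247 peaks (SMAD2/3, vehicle) to 80990 (H3K27ac, TGFB1), and the read depths implied by the peak values ran from 6.37 M to 47.7 M. The TGFB1 library was 4.41 times as deep as its vehicle partner for ATF3 and 1.4 times for JUNB, against 1.0 to 1.09 for the other antibodies. H3K27ac lay at the start of 4 of 8 melanocytic and neural crest markers in both treatments (MITF, SOX10, PMEL and S100B) and was not called at the starts of MLANA, TYR, DCT and TYRP1. Of the markers of other cell types, CD3E (1 of 4 leukocyte genes) and KRT18 (1 of 4 epithelial genes) had it, and none of 3 endothelial and 3 hepatocyte genes did. Fold enrichment (pileup over local background) and -log10 p of single peaks are the authors' own values and rank peaks within their own list only.

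Among the 5 antibodies, the widest gap in percentage points between these genes and all genes was that of ATF3 at gene starts. In vehicle, an ATF3 summit lay within 1 kb of the start of 21 of the 36 genes, against 9.78% of all protein-coding genes and 13.3% of acetylated genes of similar length. With TGFB1 the number was 25, against 22.9% and 31.9%. Within 0.5 kb the vehicle number fell to 13, against 7.03% and 9.86%, and that with TGFB1 was 18, against 17.5% and 25.1%. The comparison genes of similar length are the 500 nearest in length to each member, and the acetylated ones are those drawn from genes with a vehicle H3K27ac summit within 1 kb of the start. At 21 genes the ATF3 peak at the start was called in both treatments, where 5.98% of all genes had such a peak, and 26 genes had ATF3 at the start in at least 1 treatment (26.0% of all genes). In the wider window, ATF3 summits were found at 30 genes in vehicle (48.8% of all genes) and at 35 with TGFB1 (70.2%). Genes of similar length, acetylated or not, had ATF3 at the start in 9.54% and 22.5% of cases and in the wider window in 42.7% and 65.9%.

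H3K27ac was called at the starts of 35 of the 36 genes in each treatment, against 64.8% of all genes in vehicle and 64.8% with TGFB1, and the peak was shared between treatments at all 35 (63.8% of all genes). The exception was NUPR1, a small stress-induced chromatin protein, which had no H3K27ac summit within 10 kb in either list (80.8% and 80.9% of all genes had one). SMAD2/3 summits were found at none of the 36 genes in vehicle (1.77% of all genes) and at 15 with TGFB1 (28.2%), where 24.9% of genes of similar length and 31.8% of the acetylated ones had one. MITF summits were found at 15 genes in vehicle (23.3% of all genes, 22.0% of those of similar length and 29.3% of the acetylated ones) and at 11 with TGFB1 (21.7%, and 20.6% of those of similar length). JUNB summits were found at 25 genes in vehicle (55.9% of all genes and 51.1% of those of similar length) and at 31 with TGFB1 (72.5% and 69.3%). The shares for MITF with TGFB1 and for JUNB lay closer to those of acetylated genes of similar length (27.5% for MITF with TGFB1, and 57.7% and 78.6% for JUNB) than the ATF3 shares did (47.2% and 71.9%).

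**Figure D1:**
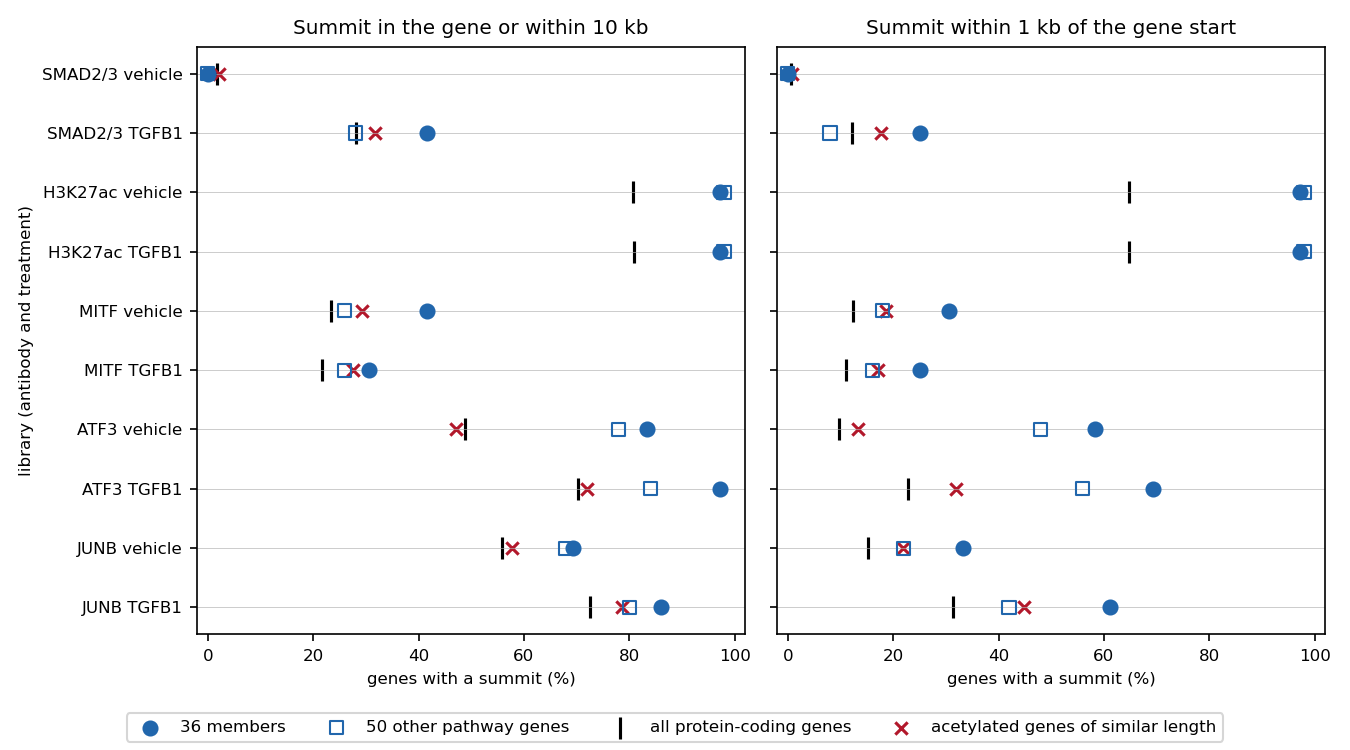
Percent of genes (x axis) with a peak summit in each library (y axis), in the gene or within 10 kb (left) and within 1 kb of the gene start (right), for the 36 genes, the 50 other pathway genes, all protein-coding genes and acetylated genes of similar length (not drawn for H3K27ac, which defines them). At the gene start, ATF3 was found at 58.3% of the 36 genes in vehicle and at 69.4% with TGFB1, farther from the shares of all genes than in the other libraries; among the 50 other pathway genes it was found at 24 and 28.

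The strongest ATF3 peaks of the whole genome included many at these genes. Of the 500 ATF3 peaks of highest -log10 p, at least 1 lay within 10 kb of 11 of the 36 genes in vehicle, against 1.41% of all genes, and of 11 with TGFB1, against 1.99%. The 11 genes in vehicle were CHAC1, HERPUD1, HSPA5, SLC7A11, TRIB3, SHMT2, SLC7A5, DDIT3, CEBPB, SLC1A4 and XBP1. With TGFB1, SLC7A1 took the place of DDIT3 and the other 10 were the same. By the same measure JUNB gave 0 genes in vehicle (1.75% of all genes) and 0 with TGFB1 (1.74%). H3K27ac gave 3 in vehicle (3.5%) and 2 with TGFB1 (3.44%), MITF gave 2 in vehicle (2.27%) and 0 with TGFB1 (2.4%), and SMAD2/3 gave 0 in vehicle (0.376%) and 1 with TGFB1 (1.57%). The limit of 500 peaks was set after the ATF3 ranks had been seen.

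CHAC1, a glutathione-degrading enzyme induced through ATF4, had the strongest ATF3 peak of the 36 genes in vehicle. It was rank 16 of 49563 peaks, with a fold enrichment of 79.6, a -log10 p of 241 and 125 reads at the summit over a background of 0.583. With TGFB1 the same site was rank 37 of 62997, with a fold enrichment of 76.9 and 258 reads. HERPUD1, an ER membrane protein of the degradation machinery, was rank 31 in vehicle (fold enrichment 64.2, 126 reads) and rank 35 with TGFB1 (72.8, 269 reads). Both sites thus ranked within the first 37 peaks of either list. SLC7A11, the cystine importer, ranked 40 in vehicle and 20 with TGFB1, with its summit 0.074 and 0.083 kb from a gene end. HSPA5, the ER chaperone BiP, ranked 39 and 19, but its summit lay 2.13 and 2.14 kb upstream of the gene start rather than at it. TRIB3, a pseudokinase that restrains ATF4, ranked 103 and 28, with summits 0.378 and 0.365 kb from the start. At these 5 genes the peak was called in both treatments, and the TGFB1 library was the deeper one.

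**Figure D2:**
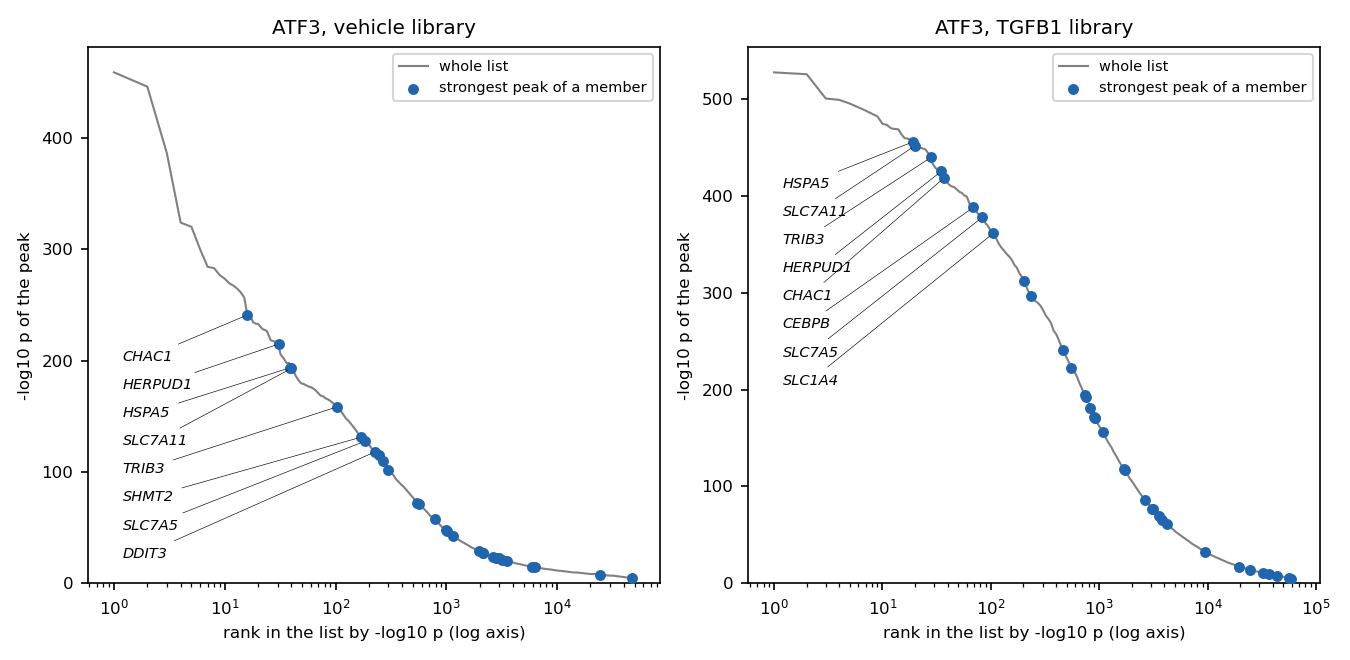
The -log10 p of ATF3 peaks (y axis) against their rank in the list (x axis, log scale) in vehicle (left) and with TGFB1 (right). The line is the whole list and each point is the strongest peak of 1 of the 36 genes, with the 8 highest named; CHAC1 lies at rank 16 in vehicle and HSPA5 at rank 19 with TGFB1.

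The CARE letters TTGCATCA occurred in the promoters of 5 of the 33 genes with a promoter window in the RefSeq table (250 bases before to 50 after the start): CEBPG, CHAC1, SLC1A4, SLC1A5 and HERPUD1. That is 15.2%, against 0.904% of 15811 genes with a window, searched on both strands. At 4 of the 5, CEBPG being the exception, an ATF3 peak overlapped the window in both treatments. The 4 promoters are shown because the ATF3 summit fell on or beside these letters, which are in capitals. In HERPUD1 the capitals also mark, downstream, an E-box (CACGTG) and an ERSE-II element, and in SLC1A5 the CARE lies on the other strand, so its reverse complement is seen. The sequences are from RefSeq (GRCh38.p14), 5′ to 3′ in the direction of the gene, and end at the base before the start, except for SLC1A4, which runs 1 base further to complete the element. They lie at chr16:56931892-56932141, plus strand, at chr15:40953221-40953470, plus strand, at chr2:64989149-64989399, plus strand, and at chr19:46784815-46785064, minus strand.
HERPUD1: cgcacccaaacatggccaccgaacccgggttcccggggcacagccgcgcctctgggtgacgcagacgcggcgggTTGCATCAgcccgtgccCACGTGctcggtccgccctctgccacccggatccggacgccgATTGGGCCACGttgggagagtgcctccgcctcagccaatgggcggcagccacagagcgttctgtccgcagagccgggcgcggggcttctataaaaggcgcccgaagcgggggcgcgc
CHAC1: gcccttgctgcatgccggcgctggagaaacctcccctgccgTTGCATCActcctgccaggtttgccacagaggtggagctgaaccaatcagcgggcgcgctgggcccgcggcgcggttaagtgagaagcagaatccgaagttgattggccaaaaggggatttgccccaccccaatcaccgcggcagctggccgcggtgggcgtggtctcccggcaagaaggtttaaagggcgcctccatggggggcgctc
SLC1A4: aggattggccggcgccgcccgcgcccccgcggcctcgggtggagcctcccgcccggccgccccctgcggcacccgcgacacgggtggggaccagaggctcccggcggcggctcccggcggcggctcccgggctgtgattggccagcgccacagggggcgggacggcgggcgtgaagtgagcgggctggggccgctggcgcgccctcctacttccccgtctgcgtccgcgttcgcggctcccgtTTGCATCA
SLC1A5: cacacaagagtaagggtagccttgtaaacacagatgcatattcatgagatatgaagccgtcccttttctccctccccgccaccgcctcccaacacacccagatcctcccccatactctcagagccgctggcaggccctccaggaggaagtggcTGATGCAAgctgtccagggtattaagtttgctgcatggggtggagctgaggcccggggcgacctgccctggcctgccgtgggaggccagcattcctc

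In HERPUD1 the ATF3 summit lay 5.5 bp from the middle of the CARE in vehicle and 0.5 bp from it with TGFB1. In CHAC1 the distances were 5.5 and 10.5 bp, in SLC1A4 7.5 and 6.5 bp, and in SLC1A5, a neutral amino acid exchanger, 29.5 and 1.5 bp. All these distances were below 30 bp, but these promoters were shown because the summit fell on or beside the element. The closeness is thus part of the choice, and it was not compared with summits at CARE genes outside the set. The vehicle and TGFB1 distances of a gene belong to the same site and are not separate cases. The JUNB peaks on these windows had their summits farther off, at 46.5 bp in HERPUD1 and 272.5 bp in CHAC1 with TGFB1 and at 118.5 bp in SLC1A4 in vehicle. In HERPUD1 the E-box lay within the same stretch, 10.5 bp from the vehicle ATF3 summit, so the letters beneath that summit are not those of the CARE alone. CEBPG, a C/EBP protein that pairs with ATF4, held the CARE 42 bases before its start, with no ATF3 summit within 1 kb of it in either list. Counted by gene, an ATF3 peak overlapped a window of 31.5% of the 143 genes with a CARE in vehicle, against 5.15% of all genes with a window. With TGFB1 the shares were 46.9% and 15.2%. Without the 5 members they were 29.7% (vehicle) and 45.7% (TGFB1) of 138 genes with a CARE. In this count, peak and CARE may lie in windows of different starts of a gene.

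Of the other elements, ERSE and ERSE-II occurred in fewer of the promoters than the CARE did, but were also rarer over all genes. The rest occurred at shares nearer those of all genes. ERSE, which is CCAAT and CCACG with a spacer between them, occurred in XBP1, HSPA5, HSP90B1 and CALR, which is 12.1% against 0.133% of all genes. Among these 4, an ATF3 peak overlapped the window holding the ERSE in CALR alone with TGFB1, and in none in vehicle. In XBP1 the ATF3 peak with TGFB1 overlapped the window of another start, which lacks the ERSE. ERSE-II occurred in HERPUD1 alone among the members (0.0949% of all genes), and the UPRE letters TGACGTGG in none of them (1.05% of all genes). The AP-1 letters TGANTCA occurred in ATF5, DDIT3, SLC3A2 and HSPA5 (12.1%, against 8.04%), the cyclic AMP element TGACGTCA in PPP1R15A (3.03%, against 3.0%) and the E-box in 6 genes (18.2%, against 10.9%). Counted by gene, 815 genes had a vehicle ATF3 peak on a window. Of these, 12.5% held the cyclic AMP element and 5.52% the CARE, against 3.0% and 0.904% of all genes with a window. The SMAD GC box GGCGCC occurred in 13 genes (39.4%, against 30.0%), while the MITF M-box TCATGTG (3.09% of all genes) and the SMAD palindrome GTCTAGAC (0.297%) occurred in none. A match describes the letters of the window and is not a measured binding site.

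Of the 3 ER stress sensors, only ATF6 had a factor within 1 kb of the start, with ATF3 and JUNB under TGFB1 alone (22.9% and 31.3% of all genes had these). EIF2AK3, the eIF2alpha kinase PERK, had an ATF3 peak called in both treatments, but it lay 27.2 kb into the gene (fold enrichment 22.3 in vehicle and 39.4 with TGFB1, ranks 1009 and 759). JUNB was called there as well in both treatments, at ranks 4277 and 2387. ERN1, the sensor IRE1, had no ATF3 peak called in both treatments, and its strongest one in vehicle stood on 4 reads. Its SMAD2/3 peak with TGFB1 lay 47.8 kb from the start (fold enrichment 6.06, 15 reads) and overlapped an ATF3 and an H3K27ac peak of the TGFB1 lists. ATF6 is the sensor cleaved in the Golgi. At its start, ATF3 summits lay at -955 and 31 bp and JUNB summits at -952 and -32 bp with TGFB1, where negative values are upstream. In the gene or within 10 kb it had 3 ATF3 summits in vehicle and 6 with TGFB1 and 4 and 6 JUNB summits over a gene body of 197751 bp, the longest of the members. With TGFB1, ERN1, EIF2AK3, PDIA4 and SEL1L were the 4 members with no ATF3, JUNB, MITF or SMAD2/3 summit within 1 kb of the start, a state found at 54.6% of all genes.

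Of the 7 transcription factor genes, DDIT3 (CHOP, a C/EBP protein of the terminal stress response) was the only gene with ATF3, JUNB and MITF called at its start in both treatments. ATF3 peaked 0.305 kb from it in vehicle (fold enrichment 46.2, rank 227, 66 reads) and 0.339 kb with TGFB1 (40.2, rank 915, 125 reads). JUNB peaked 0.168 and 0.159 kb from it (fold enrichment 12.6 and 12.2, ranks 3552 and 8709). MITF peaked 0.136 kb from it in vehicle (13.2, rank 625, 24 reads) and 0.189 kb with TGFB1 (8.61, rank 1184, 22 reads). SMAD2/3 was not called within 10 kb of DDIT3 in either list. The promoter holds the AP-1 letters 241 bases before the start, 70 and 104 bp from the ATF3 summits and 67 and 76 bp from the JUNB summits. It is shown with these letters in capitals and lies at chr12:57520515-57520764, minus strand.
DDIT3: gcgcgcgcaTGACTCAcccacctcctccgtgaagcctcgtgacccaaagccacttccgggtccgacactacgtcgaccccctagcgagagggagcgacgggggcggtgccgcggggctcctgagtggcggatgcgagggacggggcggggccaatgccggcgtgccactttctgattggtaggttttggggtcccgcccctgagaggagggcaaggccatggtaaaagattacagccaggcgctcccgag

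ATF4, the central transcription factor of the integrated stress response, had no ATF3 summit within 1 kb of its start in either treatment. Other members, such as CEBPG and HSPA5, had none there either. The single ATF3 peak within 10 kb was called in vehicle alone, 6.73 kb outside the gene, on 7 reads, and its nearest gene start was that of RPS19BP1. With TGFB1 none was called. MITF, by contrast, was called at the ATF4 start in both treatments, with a fold enrichment of 9.16 in vehicle (17 reads, rank 1425) and 5.49 with TGFB1 (13 reads, rank 3486). A weaker MITF peak 0.706 kb from the start was called in vehicle alone (5.87, 11 reads). JUNB was called at the start with TGFB1 alone, with fold enrichments of 5.48 and 3.02 at 2 sites. Its acetylation peak ranked 313 of 79172 in vehicle and 538 of 80990 with TGFB1. The ATF4 promoter is shown because it holds the MITF-type E-box CACGTG, in capitals, 82 bases before the start. It lies at chr22:39520309-39520558, plus strand.
ATF4: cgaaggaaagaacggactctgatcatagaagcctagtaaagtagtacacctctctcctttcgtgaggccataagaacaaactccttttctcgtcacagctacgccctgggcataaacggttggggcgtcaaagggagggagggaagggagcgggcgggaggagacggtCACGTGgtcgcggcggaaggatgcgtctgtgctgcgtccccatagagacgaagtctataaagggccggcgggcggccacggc
The MITF summits lay 66.5 bp from the middle of this E-box in vehicle and 73.5 bp with TGFB1. Counted by gene, the E-box occurred in a window of 31.5% of the 1494 genes with a vehicle MITF peak on a window. Of all genes with a window, 10.9% held it. Among the 8 members with such a peak, ATF4 alone held peak and E-box in the same window. In SLC1A5 they lay in windows of different starts.

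The other transcription factor genes were more varied. CEBPB, a C/EBP partner of ATF4, had ATF3 summits 1.58 kb (vehicle, rank 247) and 1.61 kb (TGFB1, rank 69) from its start, inside its short gene and toward the 3′ end. It also had 3 SMAD2/3 peaks with TGFB1, with fold enrichments of 4.51 to 6.07, a number that 1.6% of genes of similar length reach. XBP1 had an ATF3 peak in both treatments (ranks 299 and 204) and no JUNB, MITF or SMAD2/3 summit within 10 kb. ATF5, an ATF4 relative, had 4 ATF3 summits with TGFB1 and none in vehicle, each with a fold enrichment of 4.71 or less. NUPR1, which carried no acetylation, still had an ATF3 peak in both treatments, with fold enrichments of 12.8 (17 reads) and 22.6 (67 reads). CEBPG had a SMAD2/3 peak 0.095 kb from its start with TGFB1, on 13 reads.

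**Figure D3:**
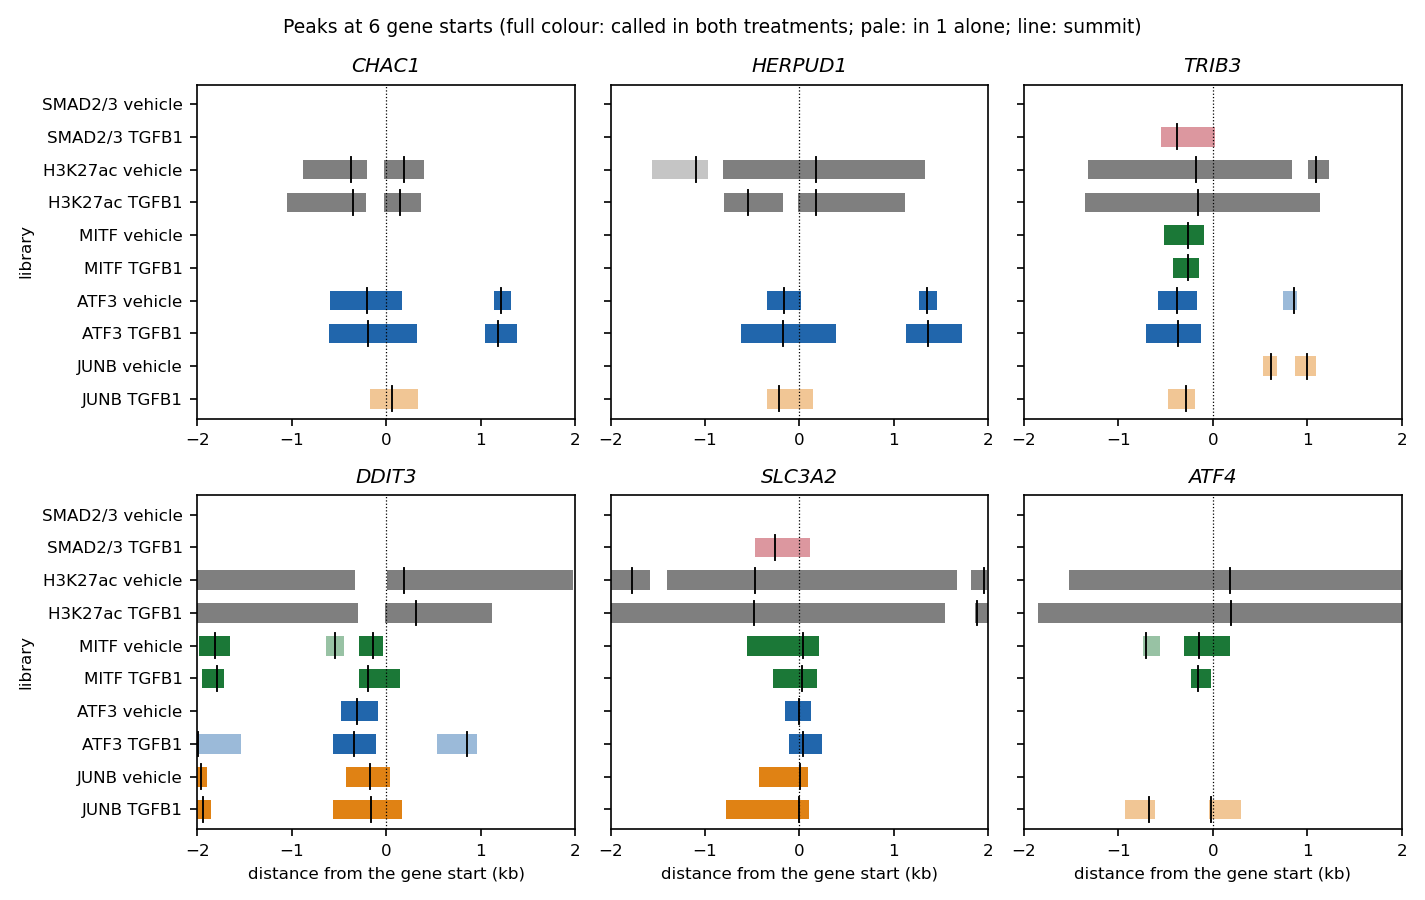
Peaks in each of the 10 libraries (y axis) by distance from the gene start in kb (x axis) at CHAC1, HERPUD1, TRIB3, DDIT3, SLC3A2 and ATF4. Bars are peaks, full in colour where called in both treatments and pale where called in 1 alone, and black lines are summits; ATF3 summits stand upstream of CHAC1 and HERPUD1 in both treatments, while ATF4 has MITF and no ATF3 peak in this range.

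The 7 regulators that stress induces each had ATF3 summits within 10 kb in both treatments, as 48.8% of all genes did in vehicle and 70.2% with TGFB1. TRIB3 was 1 of 2 members, with SLC3A2, that had all 4 factors within 1 kb of the start with TGFB1, a state found at 1.32% of all genes. Its MITF peak had fold enrichments of 8.97 (22 reads) and 10.1 (19 reads), its JUNB peak at the same site was called with TGFB1 alone (3.53), and its SMAD2/3 peak had a fold enrichment of 3.97 on 16 reads. DDIT4, an mTORC1 inhibitor, had ATF3 0.925 and 1.0 kb from the start (ranks 785 and 917), with a SMAD2/3 peak on the same site with TGFB1 (fold enrichment 5.29, 17 reads). PPP1R15A (GADD34, the phosphatase subunit that reverses eIF2alpha phosphorylation) had 3 MITF summits in each treatment. Of these, 1 lay 5.86 kb (vehicle) and 5.85 kb (TGFB1) outside the gene, inside TULP2. ATF3 and MITF peaks overlapped in both treatments, with summits 2.91 to 3.05 kb into PPP1R15A. The SMAD2/3 peak counted for PPP1R15A lay 4.62 kb outside it and nearest to the start of PLEKHA4. SESN2, a leucine sensor, had its strongest ATF3 peak 9.89 and 9.92 kb outside the gene, and STC2, a secreted glycoprotein, had 5 JUNB summits with TGFB1 and none in vehicle. VLDLR, a lipoprotein receptor, had ATF3 0.447 and 0.441 kb from the start at ranks 567 and 831.

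ATF3 was called at the starts of all 5 enzyme genes in both lists, against 9.78% of all genes in vehicle and 22.9% with TGFB1. SMAD2/3 was called within 10 kb of none of them, where 28.2% of all genes had it with TGFB1, and 5 genes are too few to read a difference from that. SHMT2, the mitochondrial serine hydroxymethyltransferase, had the strongest peak, at ranks 171 and 235, with fold enrichments of 48.6 and 44.6. PHGDH, which starts serine synthesis, had fold enrichments of 22.0 and 54.1, and ASNS, the asparagine synthetase, 12.9 and 31.5. MTHFD2, of the mitochondrial folate cycle, had 14.6 and 22.8, and PSAT1, which follows PHGDH, 9.27 and 6.25. JUNB ranked highest at PSAT1 among these 5, at rank 1848 in vehicle and 5200 with TGFB1, and was called there in both treatments. MITF was called at SHMT2 with TGFB1 alone (16 reads), and at MTHFD2 at a different site in each treatment.

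All 7 amino acid transporters had an ATF3 summit within 1 kb of the start in both treatments (9.78% of all genes in vehicle and 22.9% with TGFB1). With TGFB1, 6 of them, all but SLC1A5, had a SMAD2/3 summit within 10 kb, against 28.2% of all genes and 31.8% of acetylated genes of similar length. In a TGFB1 list cut to the length of the vehicle list, SLC7A5 alone kept one, against 3.61% of all genes. SLC7A5, the large neutral amino acid exchanger LAT1, had 6 SMAD2/3 peaks, the most of any member, where 0.2% of genes of similar length had as many. The strongest (chr16:87853734-87854879, 15.4 kb into the gene) had a fold enrichment of 15.6 on 51 reads, rank 372 of 11406. The next (chr16:87870530-87870962, 1.27 kb upstream of the start) had 9.26 on 50 reads, rank 781. Both overlapped ATF3, JUNB and H3K27ac peaks of both treatments. The ATF3 peak at the first site had ranks 184 in vehicle and 83 with TGFB1 and fold enrichments of 46.6 and 68.8, and the 4 other SMAD2/3 peaks stood on 13 to 20 reads. SLC7A5 was also the member with the most H3K27ac summits, 13 in vehicle and 17 with TGFB1, numbers that 1.4% and 0.2% of genes of similar length reach.

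**Figure D4:**
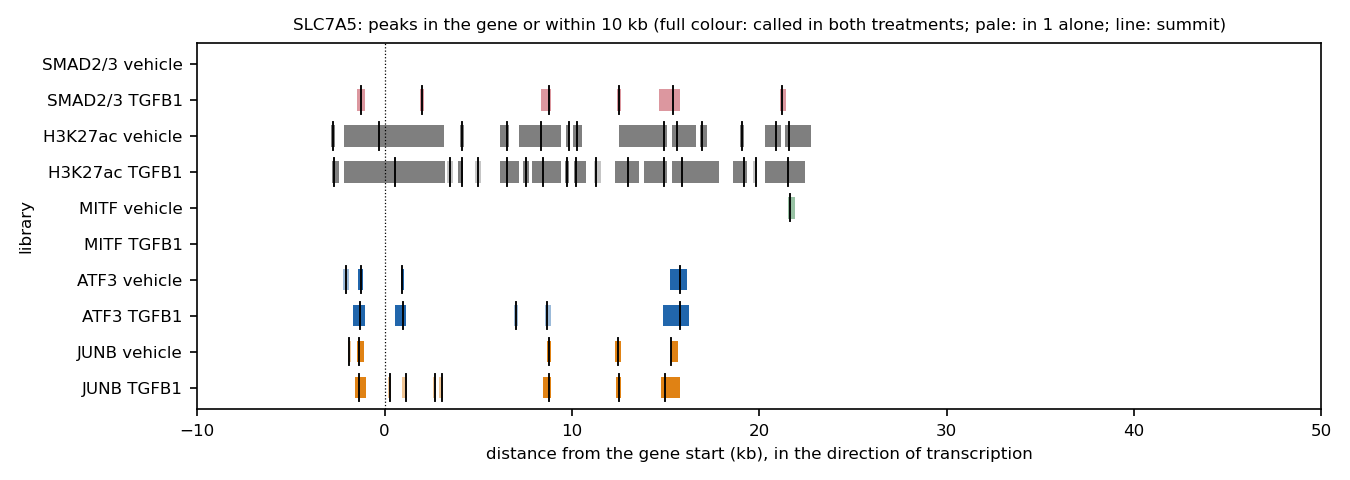
Peaks at SLC7A5 in each of the 10 libraries (y axis) by distance from the gene start in kb along the gene (x axis). Bars are peaks, full in colour where called in both treatments and pale where called in 1 alone, and black lines are summits; the 6 SMAD2/3 peaks appear with TGFB1 alone and the strongest, 15.4 kb into the gene, lies over ATF3, JUNB and H3K27ac peaks of both treatments.

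SLC3A2, the heavy chain that pairs with SLC7A5 and SLC7A11, carried all 4 factors at the same annotated start, base 62881699 of chromosome 11. MITF had fold enrichments of 15.4 in vehicle (28 reads, rank 455) and 8.9 with TGFB1 (29 reads, rank 834). JUNB had 10.5 and 14.5 (38 and 60 reads), ATF3 had 12.6 and 24.5 (18 and 73 reads), and SMAD2/3 had 6.0 with TGFB1 alone (23 reads). The JUNB and ATF3 summits all fell within 35 bp of the start. The promoter holds the AP-1 letters 37 bases before the start, shown in capitals, which lay 28 and 69 bp from the ATF3 summits and 43 and 32 bp from the JUNB summits. It lies at chr11:62881449-62881698, plus strand.
SLC3A2: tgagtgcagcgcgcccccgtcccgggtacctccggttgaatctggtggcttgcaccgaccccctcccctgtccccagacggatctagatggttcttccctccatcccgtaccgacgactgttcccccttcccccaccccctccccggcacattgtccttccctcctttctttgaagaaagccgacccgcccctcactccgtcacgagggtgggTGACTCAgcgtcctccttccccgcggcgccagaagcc

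Among the remaining transporters, SLC38A2, the SNAT2 carrier of system A, had 3 SMAD2/3 peaks with TGFB1, a number that 1.2% of genes of similar length reach. The strongest of them (fold enrichment 6.36, 21 reads) overlapped MITF, ATF3, JUNB and H3K27ac peaks of both treatments. SLC1A4, a neutral amino acid transporter, had 3 SMAD2/3 peaks as well, with fold enrichments of 2.69 to 4.73, the lowest of them over the CARE shown above. SLC7A1, the cationic amino acid transporter, had a SMAD2/3 peak 0.623 kb from its start (5.78, 23 reads), where ATF3 and JUNB were called in both treatments. The SMAD2/3 peak of SLC7A11 lay 1.25 kb from the gene (11 reads) and overlapped no peak of another antibody. At SLC1A5, MITF, JUNB and ATF3 met 4.5 kb upstream, where the MITF peak had fold enrichments of 10.2 and 10.9, JUNB was called in both treatments (15.4 and 19.4) and ATF3 with TGFB1 alone.

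The 7 genes of ER chaperones and ER-associated degradation had fewer ATF3 peaks at their starts than the transporters or the enzymes. In vehicle this was HERPUD1 alone (1 of 7, against 9.78% of all genes), and with TGFB1 HERPUD1 and CALR (2 of 7, against 22.9%), numbers near those shares. H3K27ac was called at all 7 starts in both treatments. The HSPA5 site 2.13 kb upstream also had JUNB in both treatments (fold enrichment 9.35 and 15.0). MITF was called 0.341 kb (vehicle) and 0.508 kb (TGFB1) from the start of CALR, the lectin chaperone calreticulin, on 15 and 12 reads. For HSP90B1, the ER form of HSP90, the strongest MITF peak (fold enrichment 14.5 in vehicle) and the SMAD2/3 peak lay 9.32 and 9.25 kb outside the gene at the start of UQCC6. MITF was also called 0.636 and 0.653 kb from the HSP90B1 start (6.63 and 9.26). PDIA4, DNAJB9 and SEL1L had ATF3 with TGFB1 alone, at fold enrichments of 3.76 to 8.48 and never within 1 kb of the start.

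**Figure D5:**
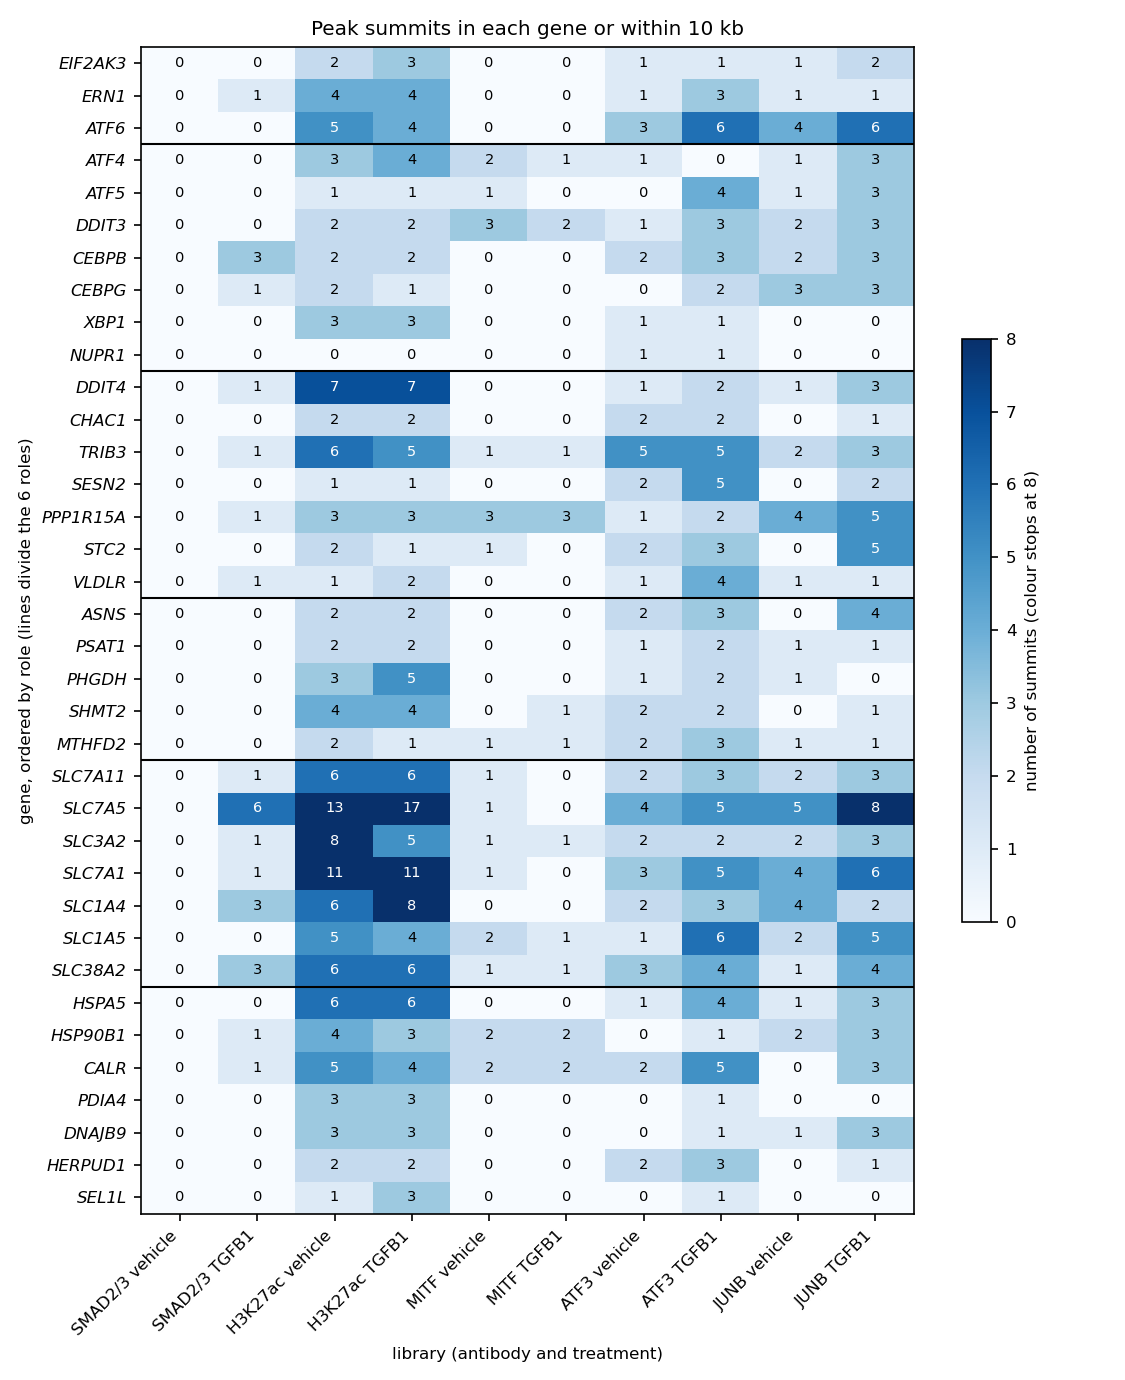
Number of peak summits in each of the 36 genes or within 10 kb (rows, ordered by role) in each library (columns). The SMAD2/3 vehicle column is 0 throughout, the H3K27ac columns are above 0 for every gene except NUPR1, and SLC7A5 reaches 17 H3K27ac, 6 SMAD2/3 and 8 JUNB summits with TGFB1.

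The effect of TGFB1 was read from peaks called in 1 treatment alone, meaning those that overlap no peak of the same antibody in the other treatment. For SMAD2/3 all 26 summits at 15 genes were of TGFB1 alone, where 27.4% of all genes had such a summit and 0.396% had one of vehicle alone. Cut to the 1247 strongest peaks, the length of the vehicle list, the TGFB1 list left 1 gene, SLC7A5. Of the 26 peaks, 22 (84.6%) overlapped vehicle H3K27ac, against 69.5% of the whole list, and 15 (57.7%) overlapped ATF3 with TGFB1, against 45.9%. JUNB of the TGFB1 library overlapped 13 (50.0%), against 62.0%, and vehicle MITF 6 (23.1%), against 13.0%. At the start, SMAD2/3 was found at 0 members in vehicle (0.516% of all genes), in both treatments at 0 (0.421%) and at 9 with TGFB1 (12.1%), where 17.7% of acetylated genes of similar length had it with TGFB1. With TGFB1, ATF3 stood at the start as well at 6 of the 9, and at 1085 of the 2426 genes of the whole table with SMAD2/3 there. Taken over all members, these 6 are 16.7%, against 5.43% of all genes. The 26 peaks had a median fold enrichment of 5.16, against 5.71 over the list.

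ATF3 peaks of TGFB1 alone were found at 29 members, where 63.6% of all genes had them and the library was 4.41 times as deep as that of vehicle. ATF3 peaks of vehicle alone were found at 10 (31.5% of all genes). That number was 3 when a -log10 q of at least 5 was asked for (11.1% of all genes) and 22 when shared peaks had to overlap by 50% of each (38.0%). Of the 55 ATF3 peaks at members in vehicle, 43 (78.2%) were called in both treatments, against 28.9% of the list. Their median fold enrichment was 12.1, against 5.57. They overlapped vehicle H3K27ac in 61.8% of cases, against 11.0% of the list. With TGFB1 the 103 peaks had a median of 7.5, against 5.78, and 42 (40.8%) were called in both, against 22.8%. Shares over a whole list, here and for the other antibodies, are not limited to peaks near genes. Per gene, members had a mean of 1.53 ATF3 summits in vehicle, 0.333 of them of vehicle alone. Acetylated genes of similar length had 0.76 and 0.35. With TGFB1 the means were 2.86 and 1.69 at members, against 1.72 and 1.31. Counting summits, 28 members had more with TGFB1, 7 had as many and 1, ATF4, had fewer, and the part of depth in these counts was not tested.

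JUNB peaks of TGFB1 alone were found at 27 members (62.2% of all genes) and of vehicle alone at 9 (28.9%). At equal list lengths the former number was 17, and at a -log10 q of at least 5 the latter was 5. Summits were more numerous with TGFB1 at 25 members and fewer at 2, PHGDH and SLC1A4. XBP1, NUPR1, PDIA4 and SEL1L had none in either list. Within 1 kb of the start JUNB was found at 12 members in vehicle (15.2% of all genes) and at 22 with TGFB1 (31.3%), where 21.8% and 44.9% of acetylated genes of similar length had it. Within 0.5 kb the vehicle number was 7 (11.7% of all genes). JUNB was called within 1 kb in both treatments at 8 (10.8% of all genes). ATF3 and JUNB stood together at the start of 10 members in vehicle (3.39% of all genes) and of 17 with TGFB1 (14.8%). ATF3 without JUNB was found at 11 in vehicle (6.4%) and at 8 with TGFB1 (8.12%). PHGDH, SLC38A2, SHMT2, NUPR1, XBP1 and VLDLR were in the last class in both treatments.

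MITF peaks of vehicle alone were found at 9 members (12.8% of all genes) and of TGFB1 alone at 2 (10.7%), SHMT2 and MTHFD2. The peaks of vehicle alone were weak, each on 6 to 11 reads, and at a -log10 q of at least 5 the number was 2. The number with peaks of TGFB1 alone was 1 at that limit and 4 when an overlap of 50% of each peak was asked for. MITF summits were found within 10 kb in both lists at 10 members: ATF4, DDIT3, TRIB3, PPP1R15A, MTHFD2, SLC3A2, SLC1A5, SLC38A2, HSP90B1 and CALR. Within 1 kb of the start it was found at 11 members in vehicle (12.3% of all genes) and at 9 with TGFB1 (11.0%), where 18.6% and 17.1% of acetylated genes of similar length had it. Within 0.5 kb the number with TGFB1 was 5 (9.81% of all genes). At 7 the peak at the start was called in both treatments (6.47% of all genes), and 13 had it in at least 1 (16.5%). ATF3, MITF and JUNB stood together at 6 starts with TGFB1 (3.54% of all genes): SLC3A2, DDIT3, CALR, PPP1R15A, MTHFD2 and TRIB3. Of the 23 vehicle MITF peaks at members, 8 (34.8%) overlapped vehicle JUNB, against 26.9% of the MITF list, and 17 (73.9%) overlapped JUNB of the TGFB1 library, against 40.8%. Of the 16 MITF peaks with TGFB1, 11 (68.8%) overlapped JUNB of the same treatment, against 50.4%.

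H3K27ac had 138 summits at members in vehicle and 140 with TGFB1. Peaks of TGFB1 alone were found at 13 members (31.5% of all genes) and of vehicle alone at 8 (30.6%). When shared peaks had to overlap by 50% of each, the order of the treatments turned, at 19 members for TGFB1 (45.4% of all genes) and 21 for vehicle (46.5%). The 23 peaks of TGFB1 alone reached a -log10 p of 10.5 at most and none overlapped a SMAD2/3 peak. The 14 of vehicle alone reached 16.8. Of the 7 transporters, 6 had a peak of TGFB1 alone (31.5% of all genes) and 4 one of vehicle alone (30.6%), and these genes had a median of 6 H3K27ac summits in each treatment.

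The 50 other genes of both pathways, in 5 roles, also had ATF3 at their starts more often than all genes did. Their list too was chosen with earlier results of these data known, so it is not an independent check. It was called within 1 kb of the start of 24 of the 50 in vehicle (9.78% of all genes) and of 28 with TGFB1 (22.9%). All 10 aminoacyl-tRNA synthetases, which charge tRNAs and are known ATF4 targets, had it in vehicle and 9 with TGFB1, while JUNB stood at the start of 2 and 6 of them (15.2% and 31.3% of all genes). Among 10 genes of amino acid metabolism and tRNA export ATF3 stood at the start of 8 in each treatment. It was found at the starts of 3 and 5 of 10 further ER chaperones, 1 and 3 of 10 genes grouped under ER-associated degradation, and 2 and 3 of 10 kinases and stress regulators. SMAD2/3 was found within 10 kb of 14 of the 50 with TGFB1 (28.0%, against 28.2% of all genes) and of none in vehicle (1.77%), and at the start of 4 with TGFB1 (12.1% of all genes), so these shares did not exceed those of all genes. The strongest was at CREB3L2, an ER-tethered transcription factor, which had 3 SMAD2/3 peaks and a highest fold enrichment of 11.5. XPOT, the tRNA exportin, followed with 6.31. GARS1 and TARS1 (tRNA synthetases) had 5.98 and 4.65, CRELD2 and MANF (secreted ER stress proteins) 5.9 and 4.69, GOT1 (an aspartate aminotransferase) 5.57 and PPP1R15B (a phosphatase subunit) 4.59. None of the 10 genes grouped under ER-associated degradation had a SMAD2/3 peak. MITF was found within 10 kb of 13 of the 50 in each treatment (23.3% and 21.7% of all genes) and JUNB of 34 and 40 (55.9% and 72.5%).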

How the data were processed

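Per the labels, reads came from A375 ChIP-seq, and per the submitters' processing notes they were aligned with Bowtie to GRCh38 and peaks were called with MACS2 2.0, in 1 list per library. The fold enrichment ratio, the -log10 p and the -log10 q of each peak are deposited values of the caller, and the deposited score was not used. The 6 inputs were not analysed here, and the control and the handling of duplicates are not given in the sources used here. Read pileups were solved from fold enrichment and -log10 p with 1 pseudocount (whole for at least 99.98% of peaks within 0.001, or 0.005 for pileups above 300), and the shortest peak, the lowest background and a genome of 2.7 Gb gave the implied depth. Overlap meant 1 bp. Gene bodies came from the RefSeq table and starts from the promoter table (33 of the 36 genes). For NUPR1, SHMT2 and SLC7A11 both gene ends were used. Python 3.11.15, numpy 2.4.6, pandas 2.3.3, scipy 1.17.1 and matplotlib 3.10.9 were used, and counts, overlaps and pileups were tested on simulated data. The members and lists were chosen with earlier results of these data known. Values were given mainly for members with SMAD2/3 or MITF summits or the highest summits of an antibody, but not for every such peak or member. Of other pathway genes, the 2 per role with the strongest SMAD2/3 peaks were named. Promoters were printed from members with a factor peak and a motif, and 3 of the 10 eligible (ATF5, CALR, DNAJB9) were left out. Alternative settings were a minimum -log10 q of 5, windows of 5 and 20 kb, start distances of 0.5 and 2 kb, reciprocal overlap of 50%, equal list lengths and acetylated comparison genes.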

Additional observations from a re-analysis of the deposited data

How the results depend on the processing

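With 1 library per antibody and treatment the spread between cultures is unknown. No paired analysis was possible because each antibody and treatment has 1 library, and the inputs, which share numbers, were not analysed here. Windows of 5 kb, a start distance of 2 kb and acetylated comparison genes left the 20, 10 and 10 counts recomputed under them within 1.5 times. At 20 kb, 1 of 20 counts moved further, the members with SMAD2/3 in vehicle, to 1. At equal list lengths 3 of 20 did: members with SMAD2/3 under TGFB1 and with a SMAD2/3 peak of TGFB1 alone both came to 1, and members with a JUNB peak of TGFB1 alone to 17. At a -log10 q of at least 5, members with a peak of vehicle alone came to 2 for MITF, 3 for ATF3 and 5 for JUNB, and members with a MITF peak of TGFB1 alone to 1. With reciprocal overlap of 50%, peaks of vehicle alone were found at 21 members for H3K27ac and 22 for ATF3, and MITF peaks of TGFB1 alone at 4. Within 0.5 kb of the start, ATF3 in vehicle was found at 13 members, JUNB in vehicle at 7 and MITF with TGFB1 at 5. Weak peaks on 4 to 11 reads limit what a missing call shows, most of all in the shallow ATF3 vehicle library.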
